A study of Mus musculus with 8 samples.

Results

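The heat shock system was followed through 10 genes, 9 that encode heat shock proteins and Hsf1, which encodes the transcription factor that switches them on, in CD4+ T cells of mice with and without prenatal exposure to cadmium (Cd). The members were chosen by gene symbol, and each of the 10 symbols matched 1 of the 27179 genes in the deposited table. Earlier results of these data had named Hsph1 among the genes with the largest increase in unstimulated cells of Cd offspring, so the comparison of unstimulated Cd and control cells chose the members. For the members, that comparison is therefore given as a description, with no test. Test results of other genes in it are also given only as a description. All mice were of the strain C.Cg-Foxp3tm2Tch/J and 8 weeks old, and carried its Foxp3 reporter allele in every group. Their parents drank either water with 10 ppm CdCl2 or unspiked water from shortly before mating. Males were removed after mating, and females stayed on their water through pregnancy. Normal water replaced the Cd water soon after birth, so that the offspring themselves were not given Cd. CD4+ T cells were taken from spleen by negative selection and sorting, and RNA was sequenced from cells lysed without culture (unstimulated) or after 16 h with beads that carry anti-CD3 and anti-CD28. A figure legend of the paper describes the sequenced cells of control offspring as CD4+CD25- conventional T cells. Each of the 4 groups, control unstimulated, control stimulated, Cd unstimulated and Cd stimulated, had 2 libraries with the replicate numbers 6 and 7, and the sources used here do not say whether a library is 1 animal or a pool. Unstimulated cells had no culture step, so 16 h of culture and 16 h of stimulation cannot be told apart.

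Levels are given as RPKM, the reads of a gene scaled to the length of its transcript and to the reads of the library. From the steps between low values, the reads counted on genes were 17985243 and 16299663 in control unstimulated, 15542732 and 19449725 in control stimulated, 19419451 and 20538306 in Cd unstimulated and 21987821 and 25486791 in Cd stimulated cells. All 6 T cell markers listed were abundant in every library, and the most abundant, Cd3e, ran from 306 to 464 RPKM. Ms4a1 of B cells, S100a8 and S100a9 of myeloid cells and Hba-a1 and Hba-a2 of red blood cells were listed at 0 in all 8 libraries. Of 6 B cell markers 3 were below 1 RPKM in all libraries, and the most abundant, Ighm, which encodes the heavy chain of immunoglobulin M, had 110 to 275 RPKM. Il2ra, which encodes the activation marker CD25, rose from 1.80 to 2.19 RPKM in unstimulated to between 94.0 and 117 RPKM in stimulated libraries, so that the stimulated libraries carried the sign of an activated T cell.

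Heat shock proteins are molecular chaperones that bind unfolded proteins, and they are named by their approximate mass. HSP70 proteins hold short stretches of a client protein in a cycle driven by ATP; J-domain proteins deliver clients and start the cycle, and HSP110 proteins such as Hsph1 exchange the nucleotide that ends it. HSP90 finishes the folding of kinases and receptors, among them kinases of T cell signalling, and the chaperonin HSP60 folds proteins in mitochondria. In resting cells the factor Hsf1 is held inactive by chaperones, and when unfolded proteins occupy them it forms trimers and binds heat shock elements, repeats of GAA and TTC in the promoters of its targets. Cadmium given directly to cells is a classical inducer of this response. Activated T cells enlarge and make protein at a high rate, and several constitutive chaperones are known to increase with growth.

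Hsp90ab1, the constitutive HSP90, had the highest level of the 10 genes in each group, and Hspa8, the constitutive HSP70, the second highest. In control unstimulated cells the order of RPKM was Hsp90ab1, Hspa8, Hsp90aa1, Dnajb1, Hspd1, Dnaja1, Hsph1, Hsf1, Hspa1b and Hspa1a, and of the neighbours in this order only Hsph1 and Hsf1 overlapped between libraries. Hsp90ab1 was at rank 63 of the table in these cells and at rank 14 in control stimulated cells. In control stimulated cells Hspd1 stood at place 3 and Hsph1 at place 5, above Dnajb1, Hsf1 and Dnaja1, and only the last pair, Hspa1b and Hspa1a, overlapped. In Cd unstimulated cells the libraries of Hsph1 overlapped those of Hspd1 and of Dnaja1, and in Cd stimulated cells no neighbours overlapped. Summed over the 9 chaperone genes, the level was 1299 and 1290 RPKM in control unstimulated, 1495 and 1637 RPKM in Cd unstimulated, 2852 and 2732 RPKM in control stimulated and 2744 and 2742 RPKM in Cd stimulated cells. This sum was highest in the stimulated groups, which overlapped each other, and in unstimulated cells both Cd libraries were above both control libraries.

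**Figure D1:**
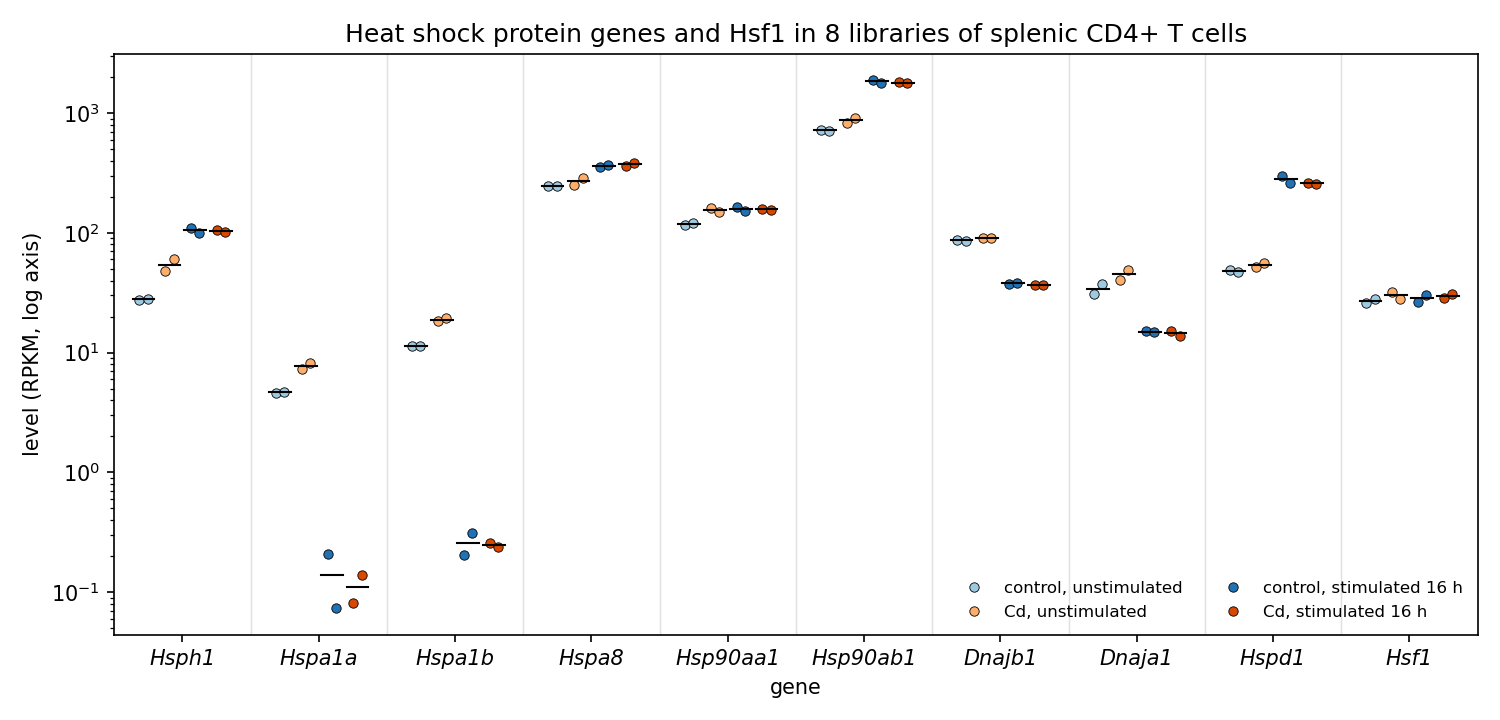
Level of the 10 genes in RPKM (log axis) in each of the 8 libraries, with a point per library and a line at the mean of the 2 libraries of a group. Hspa1a and Hspa1b lie between 4.63 and 19.3 RPKM in unstimulated and below 0.4 RPKM in stimulated libraries, and Hsph1 lies lowest in control unstimulated cells.

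The first comparison asked how the heat shock genes change when T cells of control offspring are stimulated. Hspd1, Hsph1 and Hsp90ab1 rose and Hspa1a, Hspa1b, Dnajb1 and Dnaja1 fell, and Hspa8, Hsp90aa1 and Hsf1 did not pass both thresholds of the limma test, a change of more than 2-fold and an adjusted p below 0.01. Of the 10 members 3 were thus called higher and 4 lower, against 11.5% higher and 7.17% lower of the 12605 genes tested, those with a mean of at least 0.5 RPKM, which all 10 members passed. The unstimulated libraries of this comparison also took part in the comparison that chose the members. As their values singled out Hsph1, its change is given as a description with no p. Its call carries no support, and the count of 3 called higher, which includes it, is a description. The p values of the other members use the same libraries and are not independent of the choice. Fold changes are on the scale of log2(RPKM + 0.1), which understates the change of low genes. In bulk RNA, a change in the share of cells that express a gene and a change of RNA per cell cannot be told apart. A rise or fall in RPKM is relative to all counted reads of a library, and total RNA per cell was not measured.

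Hspd1 (NCBI gene 15510, chromosome 1 of GRCm38 from 55077833 to 55088243), the mitochondrial chaperonin HSP60, had 49.3 and 46.9 RPKM in control unstimulated and 298 and 263 RPKM in control stimulated cells. All stimulated values lay far above all unstimulated values. The log2 change was 2.54 ± 0.07 (SE; limma, adjusted p = 3.26e-07, n = 2 libraries a group), the largest increase among the 10 genes. Hsph1 (15505, chromosome 5 from 149616843 to 149636498), the HSP110 protein that exchanges the nucleotide of HSP70, had 27.5 and 28.2 RPKM before and 109 and 101 RPKM after stimulation. Its 2 unstimulated libraries differed by less than 1 RPKM, and the mean was 3.76 times as high after stimulation (log2 change 1.91 ± 0.10, SE). Hsp90ab1 (15516, chromosome 17 from 45567778 to 45573261) had 726 and 711 RPKM before and 1875 and 1796 RPKM after stimulation. With a log2 change of 1.35 ± 0.07 (SE; limma, adjusted p = 3.53e-06), it also made up most of the rise in the summed level. Hsp90aa1 (15519, chromosome 12 from 110691036 to 110696395), the inducible HSP90, had 116 and 120 RPKM before and 165 and 153 RPKM after stimulation. The libraries did not overlap, but the log2 fold change of 0.43 (adjusted p = 0.000403 in limma) was below 2-fold. The ratio of Hsp90ab1 to Hsp90aa1 in RPKM accordingly was 6.27 and 5.91 before and 11.3 and 11.7 after stimulation. As Hsp90aa1 shares sequence with pseudogenes and Hsp90ab1 does not (given with the sequences), the size of this ratio is uncertain. Hspa8 (15481, chromosome 9 from 40801276 to 40805202) had 245 and 244 RPKM before and 352 and 366 RPKM after stimulation, a log2 fold change of 0.55 (adjusted p = 0.00027 in limma), again without overlap and below 2-fold.

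The stress-inducible HSP70 genes fell. Hspa1b (15511, chromosome 17 from 34956429 to 34959238) had 11.4 and 11.3 RPKM in control unstimulated and 0.206 and 0.311 RPKM in control stimulated cells. These values rest on 574 and 519 reads before and on 9 and 17 reads after stimulation. Its log2 change was -5.01 ± 0.16 (SE; limma, adjusted p = 5.11e-07), the largest change in size of the 10 genes. Hspa1a (193740, chromosome 17 from 34969359 to 34972156), its neighbour, had 4.63 and 4.69 RPKM from 233 and 214 reads before and 0.207 and 0.0735 RPKM from 9 and 4 reads after stimulation, a log2 change of -4.37 ± 0.30 (SE; limma, adjusted p = 9.99e-06). As the stimulated values rest on so few reads, the size of these folds depends on the value added before the logarithm, beyond the standard error. With 1 RPKM added it was -3.30 for Hspa1b and -2.31 for Hspa1a, and in limma voom it was -5.40 and -5.17. The 2 genes lie side by side and share sequence (given with the sequences), so their sum avoids the uncertain split between them. If reads that align to several places were left out of the counts, the sum would still be too low as a level. The sum was 16.0 RPKM in each control unstimulated library and 0.413 and 0.385 RPKM in the control stimulated libraries. The constitutive Hspa8 was 15.4 and 15.2 times the sum of Hspa1a and Hspa1b before and 852 and 951 times after stimulation. These ratios carry the same uncertainty, as Hspa8 shares sequence with other genes too.

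Immediate early genes, which respond to the handling of cells, were lower after stimulation as well. Of 15 such genes 10 fell and 1 rose in control offspring, against 7.17% and 11.5% of all genes tested, with a median log2 fold change of -2.26, and their summed level was 4221 and 4023 RPKM before and 875 and 960 RPKM after stimulation. In Cd offspring 9 fell and 2 rose, against 7.24% and 11.4% of all genes, with a median of -1.85. Of the marker sums, 4 were also lower after stimulation in control offspring, at 1305 and 1316 RPKM in place of 2347 and 2269 RPKM for T cells, 124 and 126 RPKM in place of 256 and 253 RPKM for B cells, 3.21 and 3.50 RPKM in place of 6.23 and 6.62 RPKM for myeloid cells, and 15.1 and 18.2 RPKM in place of 26.8 and 28.2 RPKM for CD8 and NK cells. The B cell sum was lower through Ighm, while the other 2 tested B cell markers were higher. The red blood cell sum was higher, at 1.04 and 1.25 RPKM in place of 0.365 and 0.995 RPKM, and so was that of regulatory T cell markers, which include Il2ra, at 173 and 147 RPKM in place of 19.2 and 15.9 RPKM. The part of handling and of these shifts in the fall of the heat shock genes was not tested.

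Both J-domain members also fell. Dnajb1 (81489, chromosome 8 from 83608175 to 83612653), the HSP40 partner of cytosolic HSP70, had 87.8 and 85.6 RPKM before and 37.4 and 38.3 RPKM after stimulation. Its replicates differed by less than 3 RPKM, and the log2 change was -1.19 ± 0.04 (SE; limma, adjusted p = 6.41e-07). Dnaja1 (15502, chromosome 4 from 40722468 to 40734965), a J-domain protein of the DNAJA type, had 30.8 and 37.6 RPKM before and 15.3 and 14.8 RPKM after stimulation (log2 change -1.18 ± 0.12, SE; limma, adjusted p = 8.07e-05). Hsf1 (15499, chromosome 15 from 76477362 to 76501155) had 26.1 and 28.3 RPKM before and 26.7 and 30.1 RPKM after stimulation. These values overlap, and the log2 fold change was 0.06, with a 95% confidence interval from -0.15 to 0.27 (adjusted p = 0.566 in limma). The sign of this difference was not stable. It was -0.09 with quantile normalization and -0.02 when libraries were scaled by the median of ratios.

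In Cd offspring the same question was asked of the response to stimulation. Hspd1 and Hsp90ab1 were called higher and Hspa1a, Hspa1b, Dnajb1 and Dnaja1 lower, 2 and 4 of the 10 members, against 11.4% higher and 7.24% lower of all genes tested. Here, too, the unstimulated libraries are those that chose the members. Hspd1 had 51.7 and 55.8 RPKM before and 262 and 256 RPKM after stimulation (log2 change 2.27 ± 0.07, SE; limma, adjusted p = 4.57e-07). Hsp90ab1 had 824 and 916 RPKM before and 1803 and 1796 RPKM after stimulation, a log2 change of 1.05 ± 0.07 (SE; limma, adjusted p = 1.27e-05). This lies just above 2-fold, and it was 0.99 after median-of-ratios scaling and 0.98 without the Cd unstimulated replicate 6, just below. Hsph1 had 48.3 and 60.0 RPKM before and 105 and 102 RPKM after stimulation. Its groups were apart, but the log2 change of 0.94 ± 0.10 (SE) missed 2-fold. Without the Cd unstimulated replicate 7 it was 1.10, above 2-fold.

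The inducible HSP70 genes fell in Cd offspring as well. Hspa1b had 18.5 and 19.3 RPKM before and 0.259 and 0.237 RPKM after stimulation, from 1007 and 1114 and from 16 and 17 reads, with a log2 change of -5.77 ± 0.16 (SE; limma, adjusted p = 3.54e-07). Hspa1a had 7.27 and 8.18 RPKM before and 0.0813 and 0.140 RPKM after stimulation, the latter from 5 and 10 reads, with a log2 change of -5.23 ± 0.30 (SE; limma, adjusted p = 4.43e-06). These sizes, too, depend on the value added before the logarithm. With 1 RPKM added the change was -3.99 for Hspa1b and -2.97 for Hspa1a, and in limma voom it was -6.21 and -6.06. Dnajb1 had 91.1 and 91.1 RPKM before and 36.5 and 36.7 RPKM after stimulation (log2 change -1.31 ± 0.04, SE; limma, adjusted p = 5.49e-07). Dnaja1 had 40.7 and 49.3 RPKM before and 15.1 and 13.8 RPKM after stimulation (log2 change -1.63 ± 0.12, SE; limma, adjusted p = 1.55e-05). In all 4 genes every stimulated library was below every unstimulated library. Hspa8 had 251 and 287 RPKM before and 364 and 381 RPKM after stimulation, a log2 fold change of 0.47 (adjusted p = 0.000644 in limma), below 2-fold. Hsp90aa1 overlapped between the groups, with 162 and 151 RPKM before and 158 and 155 RPKM after stimulation, and its log2 fold change of 0.01 had a 95% confidence interval from -0.13 to 0.14 (adjusted p = 0.936 in limma). With the other scalings of the libraries that of Hsp90aa1 was below 0, at -0.05 and -0.06. That of Hsf1 was -0.01, with an interval from -0.22 to 0.20 (adjusted p = 0.958 in limma). In Cd offspring the marker sum of T cells went from 2175 and 2180 to 1356 and 1351 RPKM with stimulation. For B cells it went from 281 and 260 to 124 and 129 RPKM, though 2 of 3 tested markers were higher. The myeloid sum went from 7.83 and 7.58 to 4.31 and 3.26 RPKM. The CD8 and NK cell sum went from 24.5 and 27.1 to 15.3 and 16.6 RPKM. Regulatory T cell markers went from 14.9 and 17.4 to 140 and 149 RPKM. The part of these shifts was not tested.

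**Figure D2:**
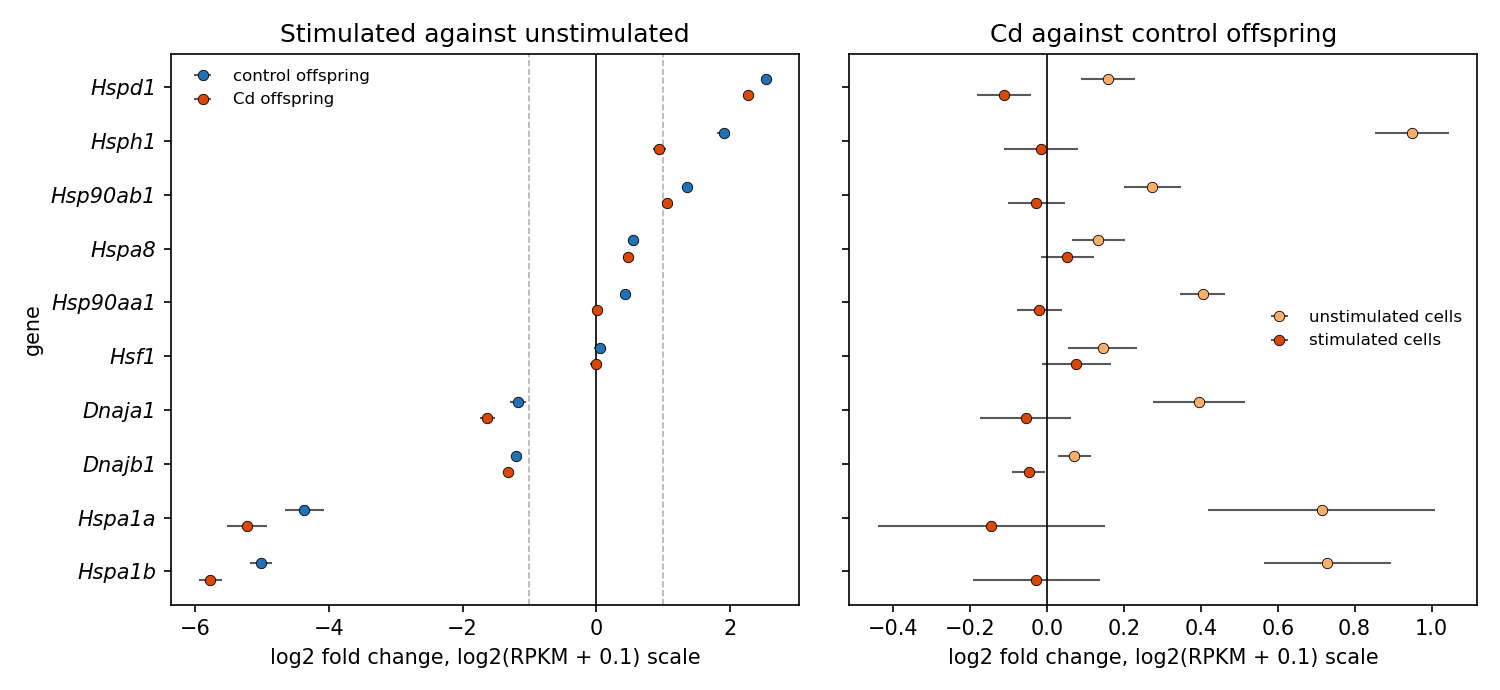
Log2 fold changes of the 10 genes with their standard error (bars), for stimulated against unstimulated cells on the left, where dashed lines mark 2-fold, and for Cd against control offspring on the right. Hspa1b lies lowest on the left, at -5.01 in control and -5.77 in Cd offspring, and on the right the values of stimulated cells lie between -0.15 and 0.08.

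In stimulated cells, Cd and control offspring could be compared in libraries that had no part in choosing the members. The standard errors come from the fit of all 8 libraries, so the unstimulated libraries do enter the p values and intervals. None of the 10 genes differed at an adjusted p under 0.05 in limma, and none had an unadjusted p under 0.05, where 414 of the 12605 genes did. None was called by limma voom on the recovered reads either. The percentage of all genes called in this comparison was 0, so that it gives no background for a list. Hsph1 had 109 and 101 RPKM in control and 105 and 102 RPKM in Cd offspring, and the Cd values lay between the control values. Its log2 fold change was -0.02, with a 95% confidence interval from -0.24 to 0.21. For Hsp90aa1 the interval ran from -0.16 to 0.12 and for Hsp90ab1 from -0.20 to 0.14. The interval was widest for Hspa1a, from -0.84 to 0.55, where the values rest on 4 to 10 reads and the sign depended on the control stimulated library left out, and a difference within it was not detectable at this depth. The sign also turned with the control stimulated library left out for Hspa1b (-0.24 and 0.19) and Hsph1 (-0.07 and 0.04). It turned likewise for Hsp90aa1 (-0.08 and 0.04), Hsp90ab1 (-0.06 and 0.003) and Hsf1 (-0.01 and 0.16). For Dnaja1 it turned with the Cd stimulated library (-0.12 and 0.01). Hsf1 had 26.7 and 30.1 RPKM in control and 28.7 and 31.1 RPKM in Cd offspring, with an interval from -0.13 to 0.29. In Dnajb1 and Hspd1 both Cd libraries were below both control libraries, as in 20.6% of all genes tested, and their log2 fold changes were -0.05 (interval -0.15 to 0.05) and -0.11 (interval -0.28 to 0.05). The value of Hspd1 was -0.02 when replicate 6 of control stimulated cells was left out and -0.20 when replicate 7 was. Other measures also stood apart. More reads were counted on genes in both Cd stimulated libraries. Ribosomal RNA genes took 4.95% and 5.52% of their reads, against 4.22% and 4.57% in control stimulated and 4.18% and 4.02% in Cd unstimulated libraries. The T cell sum was 1356 and 1351 RPKM, against 1305 and 1316 RPKM in control. The immediate early sum was 1023 and 1003 RPKM, against 875 and 960 RPKM. The other marker sums overlapped, and the part of these measures was not tested.

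In unstimulated cells, the comparison that chose the members, Cd libraries lay above control libraries for 9 of the 10 genes, with no overlap. Among all genes tested this held for 22.3%, and nothing is read from the members' count, since it was used to choose them. The members' median on the log2 scale was 0.33, against 0.01 over all genes tested. Hsph1 had 27.5 and 28.2 RPKM in control and 48.3 and 60.0 RPKM in Cd offspring. The Cd mean was 1.95 times the control mean, and the Cd replicates differed more from each other than the control replicates did. The inducible HSP70 genes stood next. Hspa1b had 11.4 and 11.3 RPKM in control and 18.5 and 19.3 RPKM in Cd offspring, and Hspa1a had 4.63 and 4.69 RPKM in control and 7.27 and 8.18 RPKM in Cd offspring. The Cd means were 1.66 times the control means for each of the pair, and their summed level was 16.0 RPKM in each control library and 25.7 and 27.5 RPKM in the Cd libraries. Hsp90aa1 had 116 and 120 RPKM in control and 162 and 151 RPKM in Cd offspring, 1.32 times the control mean. The Cd unstimulated mean, 156 RPKM, was within the range of the stimulated libraries, 153 to 165 RPKM, whereas Hsph1 stayed below its stimulated values.

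Smaller differences were seen in the other members. Dnaja1 had 30.8 and 37.6 RPKM in control and 40.7 and 49.3 RPKM in Cd offspring, 1.32 times the control mean, with a coefficient of variation of 14.1% within control and 13.5% within Cd libraries. Hsp90ab1 had 726 and 711 RPKM in control and 824 and 916 RPKM in Cd offspring, and its log2 fold change was 0.27. It was 0.16 for Hspd1, 0.13 for Hspa8 and 0.07 for Dnajb1. Quantile normalization gave 0.43 for Hsp90ab1 and 0.21 for Hspa8. Single libraries weighed on these values. Leaving out replicate 7 of Cd unstimulated cells gave 0.10 for Hspd1 and 0.04 for Hspa8, and leaving out replicate 6 of control unstimulated cells gave 0.25 for Dnaja1 in place of 0.40. Hspa8 was apart by little, with 245 RPKM as the highest control and 251 RPKM as the lowest Cd value. Hsf1 had 26.1 and 28.3 RPKM in control and 31.9 and 28.2 RPKM in Cd offspring and was the member whose groups overlapped.

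Other measures of the unstimulated libraries are given beside these values. The Cd libraries had more reads counted on genes, with 19419451 and 20538306 reads against 17985243 and 16299663 reads. Ribosomal RNA genes (Rn45s and Rn18s) took 3.75% and 4.76% of the reads in control and 4.18% and 4.02% in Cd libraries, which overlap. The 15 immediate early genes, such as Fos and Jun, which respond within minutes to the handling of tissue, had a summed level of 4221 and 4023 RPKM in control and 4159 and 3109 RPKM in Cd unstimulated cells. Their median log2 fold change was -0.22, and none of the 15 was called. The 6 B cell markers summed to 256 and 253 RPKM in control and 281 and 260 RPKM in Cd cells, nearly all of it Ighm, and the 7 myeloid markers to 6.23 and 6.62 RPKM in control and 7.83 and 7.58 RPKM in Cd cells. Most of the myeloid sum was Cd68, and the other tested myeloid marker, Itgam, was lower in Cd cells (log2 fold change -0.15). The 6 CD8 and NK cell markers, with Cd8b1 the most abundant, summed to 26.8 and 28.2 RPKM in control and 24.5 and 27.1 RPKM in Cd cells. The 5 red blood cell markers found had 0.365 and 0.995 RPKM in control and 1.72 and 0.962 RPKM in Cd cells, with Alas2 the most abundant. Alas2 alone had 0.365 and 0.899 RPKM in control and 1.72 and 0.935 RPKM in Cd cells, which did not overlap, with a log2 fold change of 1.01 (adjusted p = 0.335 in limma). The 6 T cell markers summed to 2347 and 2269 RPKM in control and 2175 and 2180 RPKM in Cd cells, and 5 of them were lower in both Cd libraries. The reads counted on genes, the B cell and myeloid sums and Alas2 were thus higher and the T cell sum lower in both Cd libraries. Their part in the values of the heat shock genes was not tested. Of the metal response list, Mt1 and Mt2, the metallothionein genes that cells induce on contact with cadmium, were at 0.113 RPKM or below in all 4 unstimulated libraries. The 3 tested genes of this list did not overlap between the groups and none was called. Hmox1 (log2 fold change -0.72) and Slc30a1 (-0.13) were lower and Mtf1 (0.14) was higher in Cd cells.

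The response to stimulation, taken as the log2 fold change of Cd offspring minus that of control offspring, shares the unstimulated libraries with the comparison that chose the members and was likewise not tested. As it holds the unstimulated comparison with the sign turned, nothing is read from its sign in the members. It was below 0 for all 10 genes, with a median of -0.36 against -0.01 over all genes tested. It was -0.97 for Hsph1, -0.86 for Hspa1a, -0.76 for Hspa1b, -0.45 for Dnaja1, -0.42 for Hsp90aa1, -0.30 for Hsp90ab1, -0.27 for Hspd1, -0.12 for Dnajb1, -0.08 for Hspa8 and -0.07 for Hsf1. For genes that rose, such as Hsph1, a value below 0 is a smaller rise, and for genes that fell, such as Hspa1b, it is a larger fall. Quantile normalization gave a value of -0.49 for Hsp90ab1 and of -0.14 for Hspa8. That of Hspa1a rested on the control stimulated libraries, as it changed to -0.45 when replicate 6 was left out and to -1.27 when replicate 7 was. For Hspa8 and Hsf1 the sign depended on 1 library, as the value was 0.01 for Hspa8 without the Cd unstimulated replicate 7 and 0.02 for Hsf1 without replicate 6.

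Beyond the members, 118 genes of 9 chaperone lists were found in the table and 104 were tested. After stimulation 19 of the 104 rose and 5 fell in control offspring, where 11.5% and 7.17% of all genes did, and 19 rose and 4 fell in Cd offspring, where 11.4% and 7.24% did. These shares are also the background of the separate lists, whose counts are small and were not tested against them. Their median log2 fold change was 0.37 in control and 0.31 in Cd offspring, against 0.07 and 0.05 over all genes tested. Among the 18 co-chaperones of HSP90, 5 rose and none fell in control and 4 rose and none fell in Cd offspring. Stip1, the adaptor that joins HSP70 to HSP90, had 49.6 and 48.0 RPKM in control unstimulated and 168 and 151 RPKM in control stimulated cells, a log2 fold change of 1.70 (adjusted p = 3.93e-06 in limma). Ppid, a peptidyl-prolyl isomerase bound to HSP90, had a log2 fold change of 1.51 in control and 1.48 in Cd offspring.

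Of the 13 mitochondrial chaperones and proteases, 3 rose in each kind of offspring and none fell. Hspe1, the HSP10 lid of the Hspd1 chaperonin, had 67.5 and 64.1 RPKM before and 169 and 159 RPKM after stimulation in control offspring, a log2 fold change of 1.32 (adjusted p = 1.46e-06 in limma). The ratio of Hspd1 to Hspe1 in RPKM went from 0.730 and 0.731 to 1.76 and 1.65, though a difference between the 2 genes was not tested. Hspa9, the mitochondrial HSP70, had a log2 fold change of 1.70 in control and 1.63 in Cd offspring. In the endoplasmic reticulum list 3 of 16 genes rose and 1 fell in each kind of offspring. Sdf2l1 rose, with a log2 fold change of 1.89 in control and 1.92 in Cd offspring, whereas Dnajb9, a J-domain protein of the unfolded protein response, fell from 89.8 and 77.9 RPKM to 12.8 and 11.4 RPKM in control offspring, a log2 fold change of -2.78 (adjusted p = 4.27e-07 in limma). Hspa5, the HSP70 of this compartment (BiP), did not pass the thresholds, at 323 and 289.5 RPKM before and 301 and 295 RPKM after stimulation in control offspring.

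In the HSP70 and HSP110 list, 3 of 10 tested genes rose and 1 fell in control and 4 rose and 1 fell in Cd offspring. Hspa4 and Hspa4l, the relatives of Hsph1 in the HSP110 family, changed by 1.30 and 1.97 (log2) in control offspring, and by 1.16 and 1.58 in Cd offspring. Of 34 other J-domain genes 2 rose and 2 fell in each kind of offspring, with Dnajc2 (1.16 in control offspring) as the largest increase and Dnajb9 and Dnajb4 (-1.58 in control offspring) as the decreases. Among 12 regulators of the HSP70 cycle 3 rose and none fell, and of these St13, a cofactor of HSP70, went from 67.5 and 72.2 RPKM to 203 and 186 RPKM in control offspring (log2 fold change 1.48, adjusted p = 1.68e-06 in limma). Of 16 tested genes of the list of other heat shock response genes 6 rose and 3 fell in control and 6 rose and 2 fell in Cd offspring. Zfand2a, an arsenite-inducible zinc finger gene, fell in both, with log2 fold changes of -2.10 and -1.96. Of 10 small heat shock protein genes 3 were listed at 0 in all libraries and 3 were tested, and none was called. Hspb11 was the most abundant of them, at 13.2 to 21.1 RPKM, while Hspb1, a classical inducible member, stayed below 0.6 RPKM.

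Hsf2, a relative of Hsf1, had 7.55 and 6.20 RPKM in control unstimulated and 13.7 and 13.0 RPKM in control stimulated cells, a log2 fold change of 0.96 (adjusted p = 0.000512 in limma), below 2-fold. Hsf3 was listed at 0 in all 8 libraries, and Hsf4 and Hsf5 were at 0.558 RPKM or below. Hsbp1, a binding partner of heat shock factor trimers, had 41.2 to 49.4 RPKM over the 8 libraries. Hsf1 was thus the most abundant of the 5 heat shock factor genes in each library.

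Between Cd and control offspring, none of the 104 other chaperone genes was called in limma in stimulated cells, and none in unstimulated cells, where 0.896% of all genes tested were called and 14 of the 104, and 1748 of all 12605 genes, had an unadjusted p under 0.05. In stimulated cells limma voom on the recovered reads also called none, and in unstimulated cells it called 5, all of them higher in Cd offspring, and 211 of all 12605 genes, of which 61 were higher and 150 lower. The lists were chosen with earlier results of this comparison known, so these calls are a description and support nothing. These 5, named because voom called them and thus after their values were seen, were Chordc1, Stip1, St13, Ahsa1 and Fkbp4, 4 of them co-chaperones of HSP90 and St13 a cofactor of HSP70. Chordc1 had 41.9 and 41.2 RPKM in control and 51.9 and 67.0 RPKM in Cd unstimulated cells, a log2 fold change of 0.50. Stip1 had 49.6 and 48.0 RPKM in control and 59.9 and 73.2 RPKM in Cd cells. Without the Cd unstimulated replicate 6, whose values are the lower ones, the log2 fold change was 0.69 for Chordc1 in place of 0.50. For Stip1 it was 0.58 in place of 0.44. Without replicate 7 only the lower Cd values are left, 51.9 RPKM for Chordc1 and 59.9 RPKM for Stip1. Over the 104 genes the median log2 fold change in unstimulated cells was 0.01, the same as over all genes tested, and the groups did not overlap with Cd higher in 19 and with Cd lower in 23 of them, against 22.3% and 20% of all genes tested. The genes called by voom were thus a few cytosolic genes, while the lists as a whole had a median near 0.

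Some members share sequence with other genes, and how the counting treated reads that align to several places is not given in the sources used here. Of all stretches of 100 bases in the annotated transcripts (GENCODE vM21), 56.5% of those of Hspa1a and 49.9% of those of Hspa1b occur in another gene, mostly in each other, so that their split is uncertain. For Hsp90aa1 the share was 38.0%, for Hspa8 28.5% and for Hspd1 23.9%, for the largest part in pseudogenes, and for Dnaja1 it was 16.6%. No such stretch was shared for Hsph1, Hsp90ab1, Dnajb1 and Hsf1. Dnaja1 was counted over 5792 nucleotides of transcript and Hsph1 over 3478 nucleotides.

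The promoters are shown because heat shock elements are the sites that Hsf1 binds. RefSeq promoter windows (GRCm38.p6, 250 bases before and 50 after a start) were found for 6 of the 10 members, Hsph1, Hspa1a, Hspa1b, Dnajb1, Dnaja1 and Hspd1. A heat shock element was searched for on both strands as 2 units (GAANNTTC or TTCNNGAA) and as 3 units (GAANNTTCNNGAA or TTCNNGAANNTTC), of which the longer contains the shorter. Of all 32851 windows 15.1% held 2 units and 0.603% held 3 units. Of the 11 windows of the members 6 held 2 units, from 5 genes, and 3 held 3 units, from Hsph1 and Hspd1. The 2 windows of Dnajb1 did not hold these letters. A match is a description of letters and not evidence of binding. The stretch before the start that holds the match is given 5′ to 3′ on the strand of the gene, with the match in capitals. For Hsph1 and Hspd1 it lies before a start inside the span given for the gene, and for Hspd1 the window at the outer start held no match. It lies at chr5:149636337-149636399 (minus strand) for Hsph1, chr17:34972223-34972290 (minus strand) for Hspa1a, chr17:34959305-34959372 (minus strand) for Hspa1b, chr4:40722314-40722381 (plus strand) for Dnaja1 and chr1:55088029-55088106 (minus strand) for Hspd1.
Hsph1: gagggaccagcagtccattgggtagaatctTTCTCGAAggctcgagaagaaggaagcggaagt
Hspa1a: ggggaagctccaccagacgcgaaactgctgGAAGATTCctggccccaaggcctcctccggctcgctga
Hspa1b: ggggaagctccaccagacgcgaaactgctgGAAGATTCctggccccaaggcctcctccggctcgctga
Dnaja1: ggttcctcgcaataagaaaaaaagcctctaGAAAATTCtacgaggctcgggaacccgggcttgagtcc
Hspd1: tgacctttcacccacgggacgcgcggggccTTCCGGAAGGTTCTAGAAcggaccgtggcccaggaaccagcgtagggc

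The stretches of Hspa1a and Hspa1b are the same, and 247 of the 250 bases before the start are the same in the 2 genes. In control stimulated cells, with few reads, Hspa1a was higher in replicate 6 and Hspa1b in replicate 7. The match of Hspd1 is the longest, with 2 overlapping copies of the 3 units. Hspe1 starts in the opposite direction next to Hspd1, and the same letters lie in its window. With this stretch in common, the log2 fold changes after stimulation in control offspring were 2.54 for Hspd1 and 1.32 for Hspe1. The 3 units of Hsph1 lie after the start. In control offspring Hsph1 and Hspd1 rose and Hspa1a, Hspa1b and Dnaja1 fell after stimulation, so genes with these letters were found in both directions. In Cd offspring Hsph1 missed 2-fold. Of the genes in the other lists, Chordc1 and Dnajb6 and Hspe1 held 3 units.

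The genes whose log2(RPKM + 0.1) over the 8 libraries was most like that of Hsph1, among 8672 genes outside the members with a mean of at least 5 RPKM, were Casp2, Efcab14 and Naa16, each with a Pearson correlation of 0.99. Casp2 had 24.0 and 23.4 RPKM in control unstimulated, 25.9 and 27.3 RPKM in Cd unstimulated, 32.3 and 32.2 RPKM in control stimulated and 31.4 and 31.2 RPKM in Cd stimulated cells. The group means had the same order as those of Hsph1 over a much smaller range, though the stimulated groups of Hsph1 overlapped. For Hsf1 they were Fhod1 (0.93), Epb41 (0.91) and Ccdc61 (0.90). The points are the same 8 libraries, which share depth and group, and the part of the order over groups in these correlations was not tested.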

How the data were processed

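RNA sequencing of splenic CD4+ T cells covered 8 libraries, grouped by their sample labels. The authors used Subread for alignment to mm10 and featureCounts for counting over RefSeq transcripts (versions, strand and multiply aligned reads not given in the sources used here). The deposited values are on a log2 scale, log2(RPKM + 1) + 0.0001, as read from the values, and were turned back into RPKM. The tests had been planned for RPKM. Whole reads were recovered for 17794 genes. The fit used limma 3.58.1 under R 4.3.3, the 12605 genes whose mean reached 0.5 RPKM, and log2(RPKM + 0.1), with 4 group means, 4 residual degrees of freedom, empirical Bayes moderation with a trend, and Benjamini-Hochberg adjustment over all genes tested. Thresholds were more than 2-fold with an adjusted p below 0.01 for stimulation and an adjusted p under 0.05 for Cd. The authors mated mice in pairs and took each litter as an independent biological replicate, but no source says that libraries are separate animals. Labels such as Ctr6 occur in unstimulated and stimulated libraries alike. The p values therefore measure the spread between libraries. Fits and read recovery were tested on simulated data, with no outcome given here. The genes named are the members, in each list up to 2 called genes per direction whose mean reached 5 RPKM, any gene of lists with up to 12 genes, and the 3 most correlated with Hsph1 and with Hsf1. Listed genes with 3 units in a promoter window, and those that voom called for Cd in unstimulated cells, are named as well. The members and lists were chosen with earlier results of these data known. Alternatives were other pseudocounts, filters, scalings and blocks, no trend, limma voom, the 4 libraries of a comparison, and each library left out. Python 3.11.15, pandas 2.3.3 and matplotlib 3.10.9 made tables and plots.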

Additional observations from a re-analysis of the deposited data

Results flagged for a closer look

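In Dnajb1 and Hspd1 the 2 Cd libraries lay above the 2 control libraries in unstimulated cells and below them in stimulated cells. Of all genes tested, 22.3% lay apart with Cd higher in unstimulated and 20.6% with Cd lower in stimulated cells, so 2 of 10 members in the latter is near the background, and the unstimulated values chose the members. The log2 fold change of Cd against control in stimulated cells minus that in unstimulated cells was -0.12 for Dnajb1 and -0.27 for Hspd1, and these differences were not tested. The levels behind them were 87.8 and 85.6 RPKM in control and 91.1 and 91.1 RPKM in Cd unstimulated cells for Dnajb1, and 298 and 263 RPKM in control and 262 and 256 RPKM in Cd stimulated cells for Hspd1. For Hspd1 the log2 fold change in stimulated cells, -0.11, was -0.02 when replicate 6 of control stimulated cells was left out.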

How the results depend on the processing

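The number of members called for stimulation was 7 in control offspring under all alternatives but an adjusted p under 0.05 with no fold threshold (9). These counts include Hsph1, whose call carries no support. In Cd offspring, where Hsph1 and Hsp90ab1 lie near 2-fold, the number of members called ran from 5 to 8. With each library left out in turn, which assumes that the lone library of a group varies like the others, it was 7 in control and 5 to 7 in Cd offspring. No member was called for Cd in stimulated cells under any alternative. The other chaperone genes called for Cd in unstimulated cells numbered 5 in limma voom and 0 to 2 with a library left out. The median log2 fold change of the members for Cd in unstimulated cells was 0.42 after quantile normalization and 0.25 to 0.35 with a library left out, and the median difference in response was -0.47 after quantile normalization and -0.42 to -0.27 with a library left out. The cause was not tested. With the replicate block (the numbers 6 and 7), 7 and 6 members were called for stimulation, as without it, and the genes called for Cd in unstimulated cells were 76 in place of 113. It was 211 in limma voom, 52 with the 4 libraries alone and 14 with no trend. With a library left out it was 19 to 105, and the lowest was found when replicate 6 of control unstimulated cells was missing. Deviations of libraries with the same number correlated at -0.11 to 0.06 over all pairs of groups. Between unstimulated and stimulated libraries of the same label the correlation was 0.06 in control and 0.01 in Cd offspring. Neither the numbers nor the labels are thus shown to pair the libraries. A block by animal label was fitted for stimulation and its difference only, and the 4 libraries of a comparison alone give no difference in response. Depth limits Hspa1a and Hspa1b in stimulated cells, with 4 to 17 reads.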
